A study of Mus musculus with 16 samples.

Results

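The metal importers of the mouse liver described here were 9 members of the ZIP family (Slc39a1, Slc39a4, Slc39a5, Slc39a7, Slc39a8, Slc39a9, Slc39a10, Slc39a11 and Slc39a14) and the divalent metal transporter DMT1 (Slc11a2). They were taken by gene name from a deposited table of 57010 genes, and all 10 were found, once each. The table gives mRNA levels as TPM (a level scaled for transcript length and to the same total in each library), so levels may be compared between genes. Since the total is fixed, a comparison between mice also depends on the other transcripts of each library. Results under other scalings are therefore given below. RNA came from whole livers of 16 male C57BL/6J mice, with 4 mice in each of 4 groups. Control mice (27, 28, 29 and 30) carried neither treatment. Cd mice (1, 2, 5 and 6) received 1.25 mg/kg CdCl2 each day for 7 days by intraperitoneal injection. Se mice (39, 40, 41 and 44) ate a diet with 2 ppm selenomethionine (SeMet) for 3 months. Cd+Se mice (13, 14, 15 and 16) had the diet for 3 months and the injections over its last 7 days. The mice were 8 to 12 weeks old by the study's methods, and 8 weeks old when the diet began by its scheme of the experiment, and what the controls were injected with is not stated in the sources used here.

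ZIP proteins move zinc, and some of them also iron, manganese and cadmium, into the cytosol from outside the cell or from organelles. DMT1 carries ferrous iron and other divalent metals together with protons. Cadmium has no transporter of its own and enters cells through importers of essential metals, of which ZIP8, ZIP14 and DMT1 are the best known carriers. In hepatocytes ZIP14 is a main route for zinc, for manganese and for iron that is not bound to transferrin, and its gene is known to respond to interleukin-6.

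In control livers the 10 mRNAs summed to 203 ± 14.9 TPM (SD, n = 4), and most of this came from 3 genes. Slc39a14, which encodes ZIP14, was the most abundant at 84.5 ± 7.49 TPM. Slc39a7, whose product releases zinc from the endoplasmic reticulum, followed at 45.0 ± 5.77 TPM, and Slc39a1, a widely expressed zinc importer of the cell surface, at 27.4 ± 3.23 TPM. Slc39a9, a zinc transporter of the Golgi and the cell surface, stood at 12.6 ± 0.98 TPM. The ranges of these 4 genes over the control mice did not overlap, so their order held in every control liver. Below them, DMT1 (9.96 ± 1.34 TPM), Slc39a4 (7.62 ± 1.85), Slc39a8 (7.52 ± 1.22) and Slc39a11 (6.88 ± 0.793) followed each other closely. Neighbours in this order overlapped, so that it was not resolved by 4 mice, although DMT1 lay above Slc39a8 and Slc39a11 in every control liver. Slc39a10 (1.12 ± 0.143 TPM) and Slc39a5 (0.36 ± 0.217 TPM) were the lowest. The same 3 genes led in every group.

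**Figure D1:**
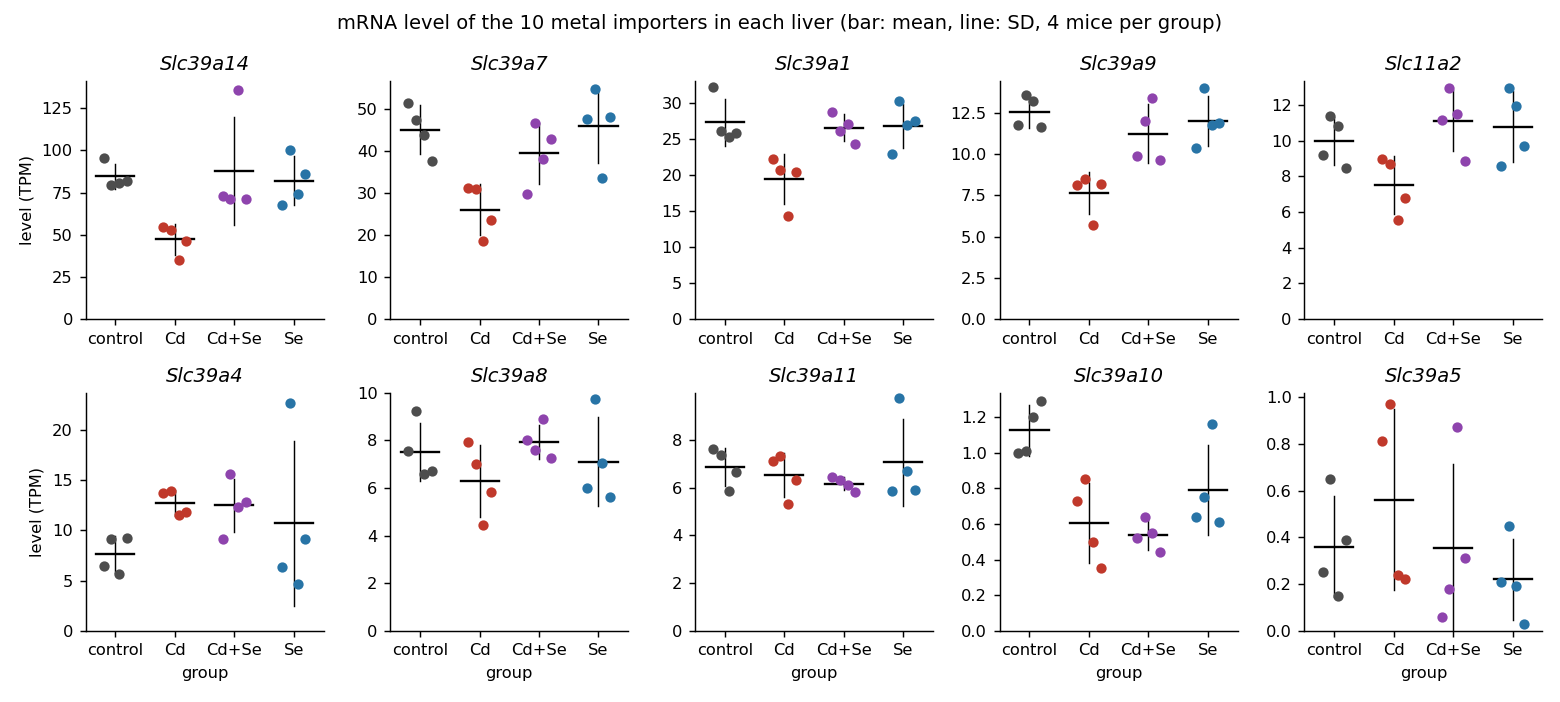
mRNA level in TPM (y axis, linear and starting at 0, with its own scale for each gene) of the 10 importers in each mouse (x axis: control, Cd, Cd+Se, Se). Points are mice, horizontal bars group means and vertical lines SD (n = 4). The Cd mice lie below every control mouse for Slc39a14, Slc39a7, Slc39a1, Slc39a9 and Slc39a10, and above every control mouse for Slc39a4.

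The labels were first checked with the metallothioneins, small cysteine-rich proteins that bind cadmium and whose genes are switched on by metals. Mt1 was between 50.9 and 221 TPM in the control mice and between 64.3 and 431 TPM in the Se mice. It was between 3178 and 4899 TPM in the Cd mice and between 3621 and 6070 TPM in the Cd+Se mice. Every injected mouse thus lay above every mouse without Cd. The log2 difference between Cd and control mice was 5.30 for Mt1 (limma adjusted p = 1.86e-05) and 5.88 for Mt2 (limma adjusted p = 5.74e-05). Of the 10 hepatocyte markers examined, all were detected at 1 TPM or more, and albumin (Alb) was the most abundant. One library stood apart in the Cd group. In Cd mouse 5, transcripts of the mitochondrial genome made up 22.2% of all TPM, against 12.8% to 18.0% in the other Cd mice, and 8 of the 10 importers had their lowest level of the group there. In Se mouse 40, 9 of the 10 importers had their highest level of the group. Calls and sizes that move without these mice are given below.

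Metal control of the metallothionein genes runs through the transcription factor MTF1, which binds the metal response element in their promoters. The core letters of this element, TGCACNC or TGCGCNC, were looked for on both strands of the RefSeq promoter windows of build GRCm38.p6, each from 250 bases before to 50 bases after a start, of which RefSeq lists more than 1 for some genes. Of all 32851 windows, 25.7% held at least 1 match. Windows were at hand for 7 of the 10 importers, and 4 of their 11 windows, from Slc39a5, Slc39a8 and Slc39a11, held the letters. The window of Mt1 held 3 matches. The following stretches show 1 match for each of these genes, so that it can be set beside that of Mt1; capitals mark the 7 core letters, which lie on the opposite strand in the 3 importers.
Mt1, chr8:94179055-94179083, plus strand, 23 bases before the start: cggtcccgctgTGCACACtggcgctccag
Slc39a8, chr3:135825627-135825655, plus strand, 19 bases before the start: ttatctctaaaGGGTGCAgggcctgatct
Slc39a11, chr11:113565938-113565966, minus strand, 140 bases before the start: tttcctggggtGTGTGCActgccctaggc
Slc39a5, chr10:128401336-128401364, minus strand, 129 bases before the start: gaggttagcagGTGTGCActtagggaatt
The stretches of Slc39a8 and Slc39a11 stand before an alternative start, which lies inside the gene as positioned below. Such a match shows only that the letters are present.

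The comparison of Cd with control mice asks which importers the liver carried at other levels after 7 days of cadmium. Of the 8 importers with a mean of at least 1 TPM, 4 fell (Slc39a14, Slc39a7, Slc39a9 and Slc39a1) and 0 rose at a limma adjusted p under 0.05. Among all 11766 genes tested, 24.9% fell and 5.82% rose, so falls were common in this comparison. The median log2 difference was -0.43 over the 8 importers and -0.17 over all genes tested. Without Cd mouse 5 these medians were -0.31 and -0.09. The groups did not overlap for 5 of the 8 importers tested, of which 4 were lower and 1 was higher, against 27.8% of all genes tested lower and 6.44% higher without overlap. These are levels in whole liver, where fewer cells of a type and less RNA per cell cannot be told apart.

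Among the importers known to carry cadmium, Slc39a14 (chr14:70303469-70351425, minus strand, GRCm38) fell most. It was 95.7, 79.6, 80.8 and 82.1 TPM in the control mice and 54.8, 52.8, 34.9 and 46.3 TPM in the Cd mice. Every Cd mouse lay below every control mouse, and the Cd mean was 0.559 times the control mean. The difference in log2(TPM + 1) was -0.84 (standard error 0.198, limma adjusted p = 0.00541). Without Cd mouse 5 it was -0.71 (limma adjusted p = 0.0216), the highest p of the 25 other settings. Slc39a8, which encodes ZIP8 (chr3:135825279-135888572, plus strand), shares its metals with ZIP14, and did not pass the test. It was 7.54, 9.24, 6.58 and 6.71 TPM in the control mice and 7.93, 6.99, 4.45 and 5.82 TPM in the Cd mice. The groups overlapped, with a log2 difference of -0.24 (standard error 0.17, limma adjusted p = 0.308). Without Cd mouse 5 it was -0.10, and -0.02 after centring. DMT1 (chr15:100387898-100425072, minus strand) was 9.21, 11.3, 10.8 and 8.48 TPM in the control mice and 8.98, 8.68, 5.54 and 6.76 TPM in the Cd mice. Cd mice 1 and 2 lay within the control range and the other Cd mice below it. The log2 difference of -0.38 (standard error 0.162) did not pass the threshold after adjustment (limma adjusted p = 0.0843). It was -0.26 without Cd mouse 5, -0.16 after centring and -0.11 once libraries were corrected for length and GC content. Whether the change in Slc39a14 differs from that in Slc39a8 or DMT1 was not tested.

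Among the genes for zinc importers of the cell surface, Slc39a1 fell and Slc39a4 did not pass the test. Slc39a1 (chr3:90248172-90253612, plus strand) was 32.2, 26.1, 25.3 and 25.9 TPM in the control mice and 22.2, 20.7, 14.3 and 20.5 TPM in the Cd mice. The groups did not overlap, and the log2 difference was -0.48 (standard error 0.133, limma adjusted p = 0.0127). Slc39a4 (chr15:76612383-76617384, minus strand) encodes ZIP4, the importer by which the small intestine absorbs zinc from the diet. It was the one importer whose Cd mice all lay above the controls, at 13.8, 13.9, 11.5 and 11.8 TPM against 6.42, 9.18, 5.65 and 9.22 TPM. Its Cd mean was 1.67 times the control mean, and the log2 difference of 0.70 (standard error 0.317) did not pass the threshold with TPM as deposited (limma adjusted p = 0.106). The standard error comes from a spread shared by all 4 groups, and Slc39a4 ranged from 4.65 to 22.7 TPM in the Se mice. With Se mouse 40 left out of the model the limma adjusted p was 0.0139 at the same difference, and with only the Cd and control mice in the model it was 0.0122. Centring each library on its median gave 0.92 (limma adjusted p = 0.0226). Over the 25 other settings the limma adjusted p ranged from 0.0122 to 0.238.

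The surface importers of low level were compared with an exact two-sided permutation test, since their mean was under 1 TPM. Slc39a10 (chr1:46807544-46892852, minus strand), which encodes the zinc importer ZIP10, was 1.0, 1.01, 1.2 and 1.29 TPM in the control mice and 0.73, 0.85, 0.50 and 0.35 TPM in the Cd mice. Every Cd mouse lay below every control mouse (exact permutation p = 0.0286, the smallest that 4 against 4 mice can give). After centring the groups were no longer told apart (exact permutation p = 0.143, with a range of 0.0286 to 0.143 over the other settings tested this way). With TPM of protein-coding nuclear genes Slc39a10 passed the filter, and limma gave -0.47 (limma adjusted p = 0.0149). Its mean was highest in the control group. Slc39a5 (chr10:128395931-128401229, minus strand), which encodes the zinc transporter ZIP5, was 0.25, 0.65, 0.15 and 0.39 TPM in the control mice and 0.81, 0.97, 0.24 and 0.22 TPM in the Cd mice. Its groups overlapped (exact permutation p = 0.429).

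Among the genes for ZIP proteins of internal membranes, Slc39a7 and Slc39a9 fell. Slc39a7 (chr17:34028269-34031682, minus strand) was 51.3, 47.2, 43.8 and 37.7 TPM in the control mice and 31.1, 30.9, 18.6 and 23.5 TPM in the Cd mice. There was no overlap, and the log2 difference was -0.79 (standard error 0.185, limma adjusted p = 0.00541). Slc39a9 (chr12:80643883-80683342, plus strand) was 11.8, 13.6, 13.2 and 11.7 TPM in the control mice and 8.11, 8.46, 5.73 and 8.20 TPM in the Cd mice. Again there was no overlap, with a log2 difference of -0.66 (standard error 0.135, limma adjusted p = 0.00235). Slc39a11 (chr11:113244853-113650079, minus strand), which encodes the zinc transporter ZIP11, was 7.62, 7.37, 5.85 and 6.68 TPM in the control mice and 7.11, 7.34, 5.31 and 6.32 TPM in the Cd mice. Its ranges lay almost on top of each other, and the log2 difference was -0.07 (standard error 0.142, limma adjusted p = 0.737). The sign of this small difference flipped to 0.15 when each library was centred on its median.

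The 4 falls kept their sign and stayed past the threshold under every one of the 25 other settings tried. Without Cd mouse 5, Slc39a7 was -0.64, Slc39a9 -0.55 and Slc39a1 -0.35. Their size moved with the scaling of the libraries, as did the median of all genes. The median log2 difference over all genes was -0.17 as deposited, 0.05 after centring and -0.01 after quantile normalization. Slc39a14 was -0.62 after centring and -0.73 after quantile normalization. Slc39a1 went from -0.48 to -0.26 after centring (limma adjusted p = 0.0337, with a range of 0.004 to 0.0448 over the 25 settings). After centring, 4 importers were lower and 1 (Slc39a4) higher, while 15.3% of all genes were lower and 19.2% higher at that setting. Across 11561 genes with an annotated length, the log2 difference fell with transcript length (Spearman rho = -0.28, a description across genes, which are not independent replicates). Slc39a14 and Slc39a9, with longest transcripts of 5117 and 5427 bases, are long, Slc39a7 and Slc39a1, with 2433 and 2364 bases, are short. After a correction of each library for length and GC content, Slc39a14 was -0.57 (limma adjusted p = 0.0203) and Slc39a9 was -0.37 (limma adjusted p = 0.00779).

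**Figure D2:**
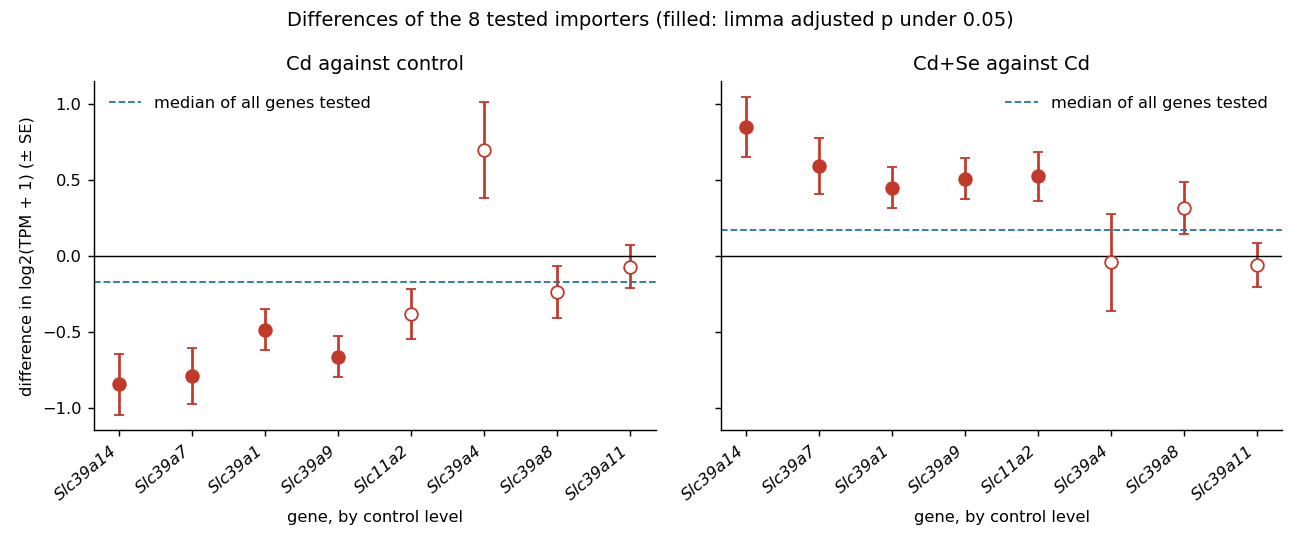
Difference in log2(TPM + 1) (y axis, with its standard error) of the 8 importers tested (x axis, ordered by control level) in 2 panels, Cd against control and Cd+Se against Cd, which share the Cd mice. Filled points have a limma adjusted p under 0.05, and the dashed line is the median of all genes tested, at -0.17 and 0.17. Slc39a14, Slc39a7, Slc39a1 and Slc39a9 are filled in both panels, below 0 in the first and above 0 in the second.

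The comparison of Cd+Se with Cd mice asks how the importers differed between cadmium-injected mice on the SeMet diet and those without it. It uses the same 4 Cd mice as the comparison above, so the pair of results is not independent. Of the 8 importers, 5 were higher in Cd+Se mice (Slc39a14, Slc39a7, DMT1, Slc39a9 and Slc39a1) and 0 were lower at a limma adjusted p under 0.05, against 13.6% and 2.35% of all genes tested. The median log2 difference was 0.48 over the 8 importers and 0.17 over all genes tested. Without Cd mouse 5 these medians were 0.35 and 0.09. The groups did not overlap for 3 of the 8, all higher, against 16.1% of all genes tested.

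Slc39a14 was 73.2, 71.4, 136 and 71.4 TPM in the Cd+Se mice. Each of these lay above the highest Cd mouse (54.8 TPM), and mouse 15 stood far above the others. The log2 difference was 0.85 (standard error 0.198, limma adjusted p = 0.0147). Without Cd+Se mouse 15 it was 0.62 (limma adjusted p = 0.0277), and without Cd mouse 5 it was 0.71 (limma adjusted p = 0.048). The other 3 Cd+Se mice lay below the lowest control mouse (79.6 TPM), so that the group mean of 88.0 ± 32.0 TPM was brought to the control level by mouse 15.

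DMT1, which had not passed the test in Cd against control, was 11.1, 12.96, 11.5 and 8.84 TPM in the Cd+Se mice. Mouse 16 fell just below the highest Cd mouse (8.98 TPM), and the other Cd+Se mice lay above all Cd mice. The log2 difference was 0.52 (standard error 0.162, limma adjusted p = 0.04). Slc39a8 was 8.0, 7.61, 8.88 and 7.24 TPM in the Cd+Se mice, overlapping the Cd mice, with a log2 difference of 0.31 (standard error 0.17, limma adjusted p = 0.209). Without Cd mouse 5 the Slc39a8 difference was 0.18, and after centring 0.12.

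Slc39a1, the surface zinc importer, was 28.7, 26.2, 27.2 and 24.3 TPM in the Cd+Se mice, all above the Cd mice (log2 difference 0.45, standard error 0.133, limma adjusted p = 0.0334). Slc39a9 was 9.91, 11.99, 13.4 and 9.66 TPM, also without overlap (log2 difference 0.51, standard error 0.135, limma adjusted p = 0.0218). Slc39a7 was 29.9, 46.7, 38.1 and 42.8 TPM, where mouse 13 lay within the Cd range (log2 difference 0.59, standard error 0.185, limma adjusted p = 0.0416). For Slc39a1 and Slc39a7, 3 of the 4 Cd+Se mice lay within the control range, and for Slc39a9 2 of the 4.

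The other zinc importers did not pass the test. Slc39a4 was 9.18, 15.6, 12.4 and 12.9 TPM in the Cd+Se mice, a range that spanned that of the Cd mice (log2 difference -0.04, standard error 0.317, limma adjusted p = 0.941). All but mouse 13 lay above every control mouse. Slc39a11 was 6.45, 6.31, 6.13 and 5.82 TPM (log2 difference -0.06, standard error 0.142, limma adjusted p = 0.802). Its difference was -0.14 without Cd mouse 5, -0.25 after centring (limma adjusted p = 0.092) and -0.26 after quantile normalization (limma adjusted p = 0.0844). Slc39a10 was 0.52, 0.64, 0.55 and 0.44 TPM, within the range of the Cd mice (exact permutation p = 0.657). Slc39a5 was 0.06, 0.18, 0.87 and 0.31 TPM and overlapped the Cd mice too (exact permutation p = 0.429).

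These 5 calls depended on single mice and on the model. With only the Cd and Cd+Se mice in the model, 0 importers passed the threshold (limma adjusted p = 0.0746 for Slc39a14), and only 0.399% of all genes were then higher. Slc39a14 was the 1 importer that passed without Cd mouse 5, without Cd+Se mouse 15 and without Cd+Se mouse 14, where 5.02%, 9.55% and 5.19% of all genes were higher. Centring each library on its median left 2 importers past the threshold, while 7.96% of all genes were higher and 10.8% lower at that setting. Over the 25 other settings, Slc39a14 stayed past the threshold in 24, Slc39a9 in 20, Slc39a1 in 18, and Slc39a7 and DMT1 in 14 each. The sign was the same in all of them for these 5 genes, and the limma adjusted p of Slc39a14 ranged from 0.00697 to 0.0746.

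**Figure D3:**
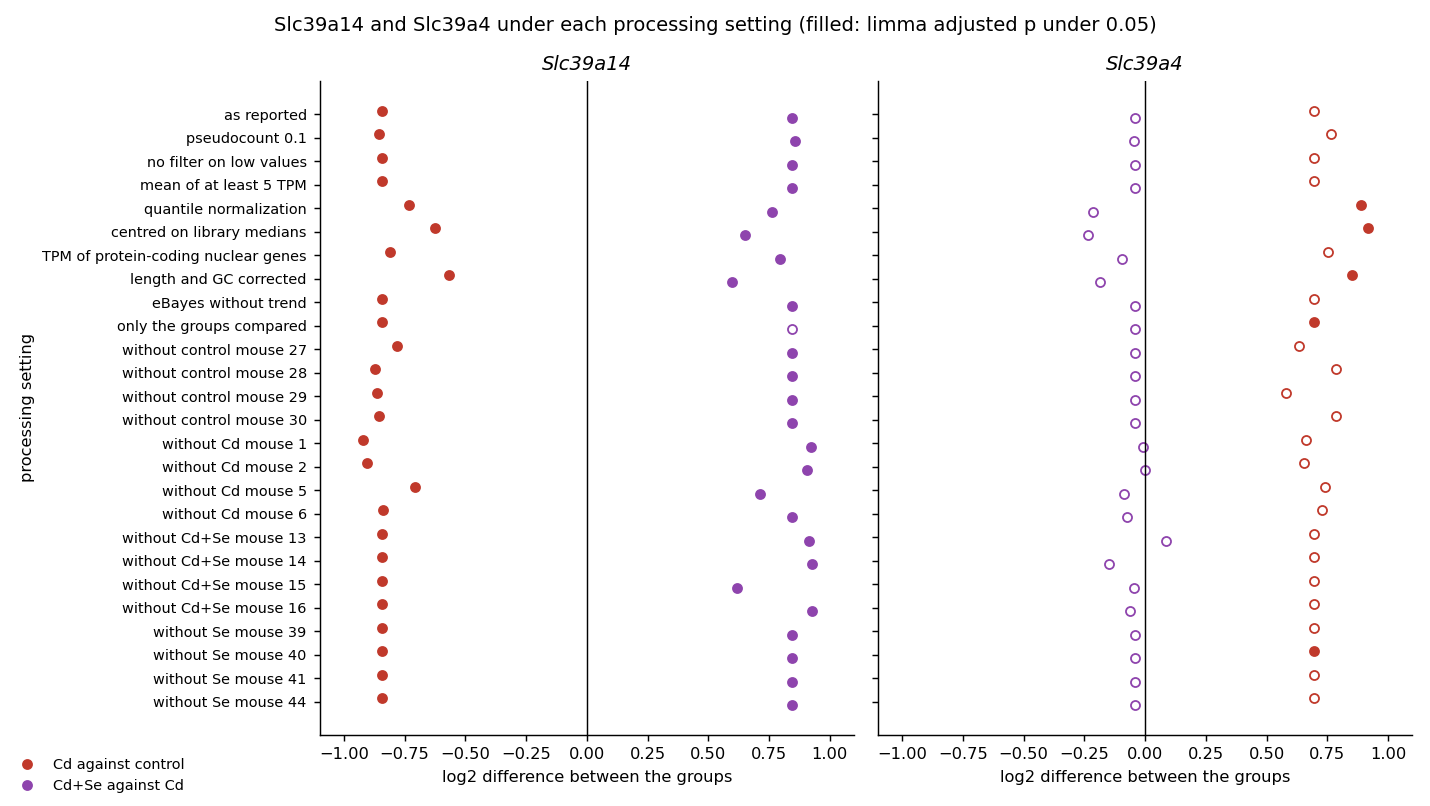
Log2 difference (x axis) of Slc39a14 and Slc39a4 between Cd and control mice and between Cd+Se and Cd mice under the reported settings and each alternative (y axis). Filled points have a limma adjusted p under 0.05. Slc39a14 keeps its sign throughout, between -0.92 and -0.57 for Cd against control and between 0.60 and 0.93 for Cd+Se against Cd, and Slc39a4 lies between 0.58 and 0.92 for Cd against control.

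The effect of cadmium was also compared between the diets. In mice on the SeMet diet, Cd+Se against Se, 0 of the 8 importers passed the limma threshold and 0 had an unadjusted p under 0.05, against 0.714% and 10.9% of all genes tested. Slc39a14 was 67.6, 100, 74.0 and 85.7 TPM in the Se mice and overlapped the Cd+Se mice (log2 difference 0.06, standard error 0.198, limma adjusted p = 0.955). Slc39a4 was 6.38, 22.7, 4.65 and 9.12 TPM in the Se mice, where mouse 40 stood above all other mice of the study (log2 difference 0.41, standard error 0.317, limma adjusted p = 0.714). Without mouse 40 the difference was 0.83 (limma adjusted p = 0.098), and without Se mouse 41 it was 0.14 (limma adjusted p = 0.914), the ends of the range over the other settings. The interaction of Cd and Se, which tests whether the change with cadmium differed between the diets, passed for 0 of the 8 importers at a limma adjusted p under 0.05, against 1.04% of all genes tested. At an unadjusted p under 0.05 there were 4 importers, against 21.3% of all genes tested. For Slc39a14 the interaction was 0.90 (standard error 0.281, limma adjusted p = 0.102), for Slc39a9 0.57 (limma adjusted p = 0.117), for Slc39a7 0.57 (limma adjusted p = 0.222) and for Slc39a1 0.47 (limma adjusted p = 0.172). With TPM recomputed over protein-coding nuclear genes it passed for 2, Slc39a14 (limma adjusted p = 0.0456) and Slc39a9 (limma adjusted p = 0.0487), while 6.27% of all genes passed above 0 and 0.709% below 0 at that setting. Over the other settings these p-values reached 0.204 and 0.208. A difference between the diets in the response of these genes was therefore not resolved at 4 mice per group.

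Neither group on the diet was separated from the control group. In Se against control, 0 importers passed the limma threshold, as did 0% of all genes, and 0 had an unadjusted p under 0.05, against 3.86% of all genes. In Cd+Se against control, 0 importers passed, against 0.484% of all genes, and 0 had an unadjusted p under 0.05, against 10.9% of all genes. Slc39a14 differed from control by 0.00 (standard error 0.198) in Cd+Se mice and by -0.06 (standard error 0.198) in Se mice on the log2 scale. Slc39a4 differed from control by 0.65 in Cd+Se mice (standard error 0.317, limma adjusted p = 0.471). Slc39a10 was the exception outside the model. Its Cd+Se mice all lay below the control mice (exact permutation p = 0.0286, the smallest possible), against 4.98% of the genes tested that were lower without overlap. In the Se mice it was 0.64, 0.75, 1.16 and 0.61 TPM and overlapped the controls (exact permutation p = 0.0857). Every Cd and Cd+Se mouse and all but 1 Se mouse thus had Slc39a10 under 1 TPM, and every control mouse had 1 TPM or more.

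The makeup of the importer pool, which does not depend on the scaling of a library, shifted in the Cd mice. The summed level was 203 ± 14.9 TPM in control, 135 ± 25.0 in Cd, 204 ± 35.4 in Cd+Se and 203 ± 37.1 in Se mice (SD, n = 4). Slc39a14 made up 38.8% to 43.2% of this sum in the control mice and 34.5% to 35.7% in the Cd mice, and the groups did not overlap. Slc39a4 made up 3.78% ± 1.03 of it in control and 9.62% ± 1.17 in Cd mice, again without overlap. This separation had to follow from the higher Slc39a4 level and the lower sum in every Cd mouse. In the Cd+Se mice Slc39a4 held 6.22% ± 1.44, between these groups, and in the Se mice 4.90% ± 2.77. Slc39a11, whose level was nearly the same in Cd and control mice, held 3.39% ± 0.25 in control and 4.88% ± 0.28 in Cd mice. The shares are parts of 1 sum, so a lower share of Slc39a14 raises those of the others. Neither the shares nor the ratios below were corrected for transcript length, with which the log2 difference fell. The longest transcript has 5117 bases for Slc39a14, 2750 for Slc39a4 and 2781 for Slc39a11. The part of length in the shares was not tested.

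The level of Slc39a4 relative to that of Slc39a14 in the same liver was 0.091 ± 0.026 in control and 0.275 ± 0.037 in Cd mice. The highest control mouse had 0.115 and the lowest Cd mouse 0.251. This gap had to follow from the levels above, since every Cd mouse had more Slc39a4 and less Slc39a14 than every control mouse. It is therefore no further result. In Cd+Se mice the ratio was 0.154 ± 0.057, with a range of 0.091 to 0.219 that lay below all Cd mice. In Se mice it was 0.122 ± 0.072, with a range of 0.063 to 0.226. The ratio of Slc39a8 to Slc39a14 was 0.079 to 0.116 in control and 0.126 to 0.145 in Cd mice. That of DMT1 to Slc39a14 was 0.096 to 0.143 in control and 0.146 to 0.164 in Cd mice. In Cd+Se mice these ratios were 0.065 to 0.109 and 0.084 to 0.181. In the order of levels, Slc39a4 was the sixth in control livers and the fourth in Cd and Cd+Se livers. Slc39a4 and its neighbours overlapped in control livers, while in Cd livers it lay above Slc39a9 in every mouse. In Cd+Se livers it overlapped Slc39a9, so that its place there was not resolved.

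**Figure D4:**
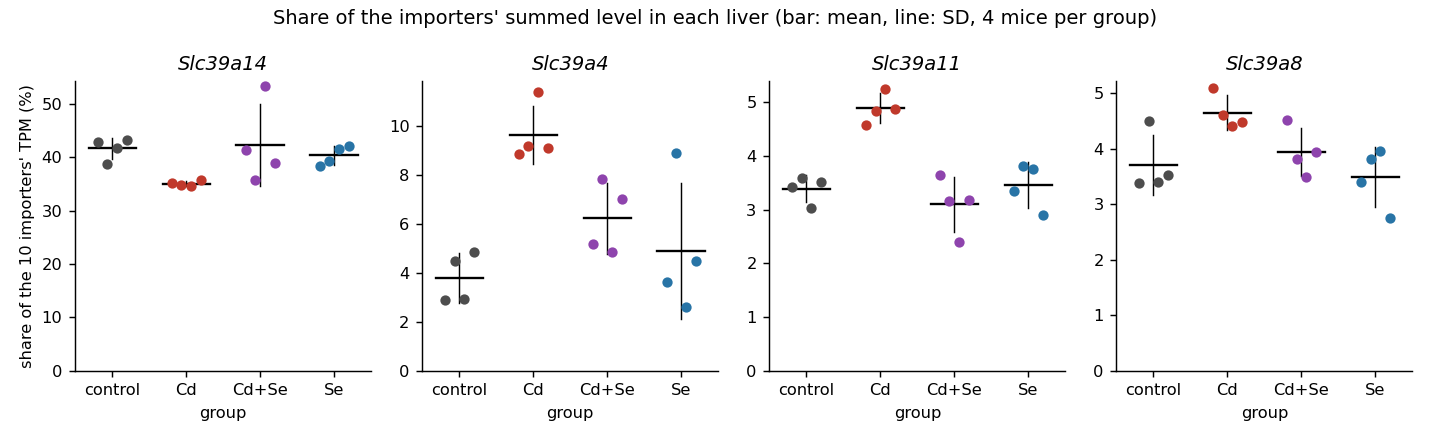
Share in percent of the summed TPM of the 10 importers (y axis, starting at 0, with its own scale for each gene) held by Slc39a14, Slc39a4, Slc39a11 and Slc39a8 in each mouse of the 4 groups (x axis). Points are mice, horizontal bars means and vertical lines SD (n = 4). In the Cd mice Slc39a14 holds 34.5% to 35.7%, below every control mouse, and Slc39a4 and Slc39a11 lie above every control mouse.

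The other 5 ZIP genes were low in liver. Slc39a13, whose product releases zinc from vesicles and is known for its role in connective tissue, was 4.67 ± 0.943 TPM in control mice and 3.10 ± 0.764 in Cd mice. Slc39a6 (1.68 ± 0.655 TPM), Slc39a3 (1.41 ± 0.327), Slc39a2 (0.632 ± 0.102) and Slc39a12 (0.08 ± 0.0762) stood below it in control mice. Of the 4 tested, 1 rose and 1 fell in Cd against control, where 5.82% of all genes rose and 24.9% fell. The one that rose was Slc39a2, which encodes the zinc importer ZIP2. It was 0.55, 0.65, 0.77 and 0.56 TPM in the control mice and 2.12, 2.36, 1.55 and 1.55 TPM in the Cd mice. The log2 difference was 0.82 (standard error 0.16, limma adjusted p = 0.00186). Slc39a2 reached a mean of 1 TPM through the Cd mice, and so was tested because of the group where it was high. Without the filter 1 of the 5 genes rose, again Slc39a2, and 0 fell. Over the 24 other settings the highest limma adjusted p of this gene was 0.0066. In the Cd+Se mice Slc39a2 was 0.83, 0.75, 0.67 and 1.36 TPM, all below the Cd mice (log2 difference -0.61, standard error 0.16, limma adjusted p = 0.0212). Slc39a13 fell by 0.47 (standard error 0.172, limma adjusted p = 0.0492), a call that was lost under 17 of 24 other settings.

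ZnT proteins export zinc from the cytosol and so work against the importers. Of the 7 ZnT genes tested, 0 rose and 1 fell in Cd against control, against the same shares of all genes. In Cd+Se against Cd 2 were higher and 0 lower, against 13.6% and 2.35% of all genes. The one that fell was Slc30a10, which encodes a manganese exporter. It was 10.98, 10.9, 13.8 and 9.26 TPM in the control mice and 5.68, 4.69, 1.91 and 3.71 TPM in the Cd mice (log2 difference -1.35, standard error 0.384, limma adjusted p = 0.0154). Slc30a1, the zinc exporter of the cell surface, was 24.0, 18.4, 10.4 and 13.5 TPM in the Cd mice and 28.4, 31.6, 31.2 and 25.5 TPM in the Cd+Se mice. The groups did not overlap (log2 difference 0.84, standard error 0.23, limma adjusted p = 0.025). Slc30a4, a zinc exporter of vesicles, was higher by 0.54 (limma adjusted p = 0.0413), a call that was lost under 13 of 24 other settings.

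Among 17 tested transporters of other metals and of metal complexes, 2 rose and 3 fell in Cd against control, with a median log2 difference of -0.24, where 5.82% of all genes rose and 24.9% fell. After centring, 4 rose and 3 fell, where 19.2% of all genes rose and 15.3% fell. The same all-gene shares apply to the iron, hepcidin, regulator and marker lists, and those for Cd+Se against Cd were 13.6% higher and 2.35% lower. For Cd+Se against Cd they were 7.96% and 10.8% after centring, and 0.399% and 0.161% with only the groups compared. Slc22a3 was among those that rose with TPM as deposited (0.43, limma adjusted p = 0.0399). The copper exporter Atp7b (-0.85, limma adjusted p = 0.00183), the copper importer Slc31a1 (-0.67, limma adjusted p = 0.00202) and the manganese and calcium pump Atp2c1 (-0.61, limma adjusted p = 0.00804) fell. In Cd+Se against Cd, 3 of these 17 genes were higher (Slc11a1, Slc31a1 and Atp7b) and 1 was lower, and the call of Atp7b was lost under 17 of 24 other settings. Slc11a1, the macrophage relative of DMT1, was 2.40, 2.18, 2.60 and 2.56 TPM in the Cd mice and 8.59, 6.84, 5.68 and 5.02 TPM in the Cd+Se mice (log2 difference 1.11, standard error 0.26, limma adjusted p = 0.0145).

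Of 18 tested genes of iron uptake, export and storage, 1 rose and 3 fell in Cd against control, and 4 rose and 2 fell after centring. Transferrin (Trf), which carries iron in plasma, rose by 0.69 (limma adjusted p = 0.00491). Steap4, a metalloreductase, fell by 1.01 (limma adjusted p = 0.00383), Aco1, the iron regulatory protein IRP1, fell by 0.74 (limma adjusted p = 0.00038), and Ncoa4, the receptor for ferritin breakdown, fell by 0.61 (limma adjusted p = 0.0172). In Cd+Se against Cd, 3 of the 18 were higher and 0 lower, namely Steap4 (1.33, limma adjusted p = 0.0047), Ncoa4 (0.63, limma adjusted p = 0.0285) and Aco1 (0.42, limma adjusted p = 0.0204). In the hepcidin axis, which sets iron export from cells, 0 of 11 genes rose and 2 fell in Cd against control, and 1 rose and 1 fell after centring. The 2 that fell with TPM as deposited were Tmprss6 (-0.65, limma adjusted p = 0.00287), a protease that holds hepcidin down, and Smad6 (-0.52, limma adjusted p = 0.0152), an inhibitor of bone morphogenetic protein signalling. Smad6 reached a mean of 1 TPM through the control mice, where it was highest, and its call was lost under 2 of 24 other settings. Tmprss6 was the 1 gene of the axis that was higher in Cd+Se against Cd (0.54, limma adjusted p = 0.019). Hepcidin itself (Hamp) was 5832, 5108, 4953 and 5400.4 TPM in the control mice and 2083, 3242, 1719 and 2579 TPM in the Cd mice. In the Cd+Se mice it was 5839, 4446, 4564 and 4829 TPM. The Cd mice lay below all mice of both other groups, but the log2 differences of -1.18 for Cd against control (limma adjusted p = 0.124) and 1.06 for Cd+Se against Cd (limma adjusted p = 0.201) did not pass the test. In Se mouse 40 Hamp was 516 TPM, against 3829 to 7201 TPM in the other Se mice. With this mouse left out of the model the limma adjusted p-values were 0.00098 and 0.00695, and with only the groups compared 0.0025 and 0.0494. Under the other 23 settings neither difference passed, with a limma adjusted p of up to 0.281 and 0.399.

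A list of 16 genes known to regulate importers by transcription, RNA binding or protein turnover had 2 that rose and 6 that fell in Cd against control, with a median log2 difference of -0.40. After centring, 4 rose and 3 fell, with a median of -0.18. Without the filter 0 rose and 3 fell, where 616 of 27943 genes rose and 2420 fell. Atf4, a factor of the integrated stress response (0.60, limma adjusted p = 0.038), and Nfkbia, an inhibitor of NF-kB (0.53, limma adjusted p = 0.0268), were the 2 that rose with TPM as deposited. Their calls were lost under 7 and 4 of 25 other settings. Epas1, the hypoxia factor HIF2A, fell by 1.01 (limma adjusted p = 0.00166). Il6st, the signalling chain shared by the interleukin-6 family of receptors, was 22.9, 22.6, 20.6 and 20.3 TPM in the control mice and 12.6, 12.4, 8.22 and 9.31 TPM in the Cd mice (log2 difference -0.98, limma adjusted p = 0.000533). Atf6, a sensor of unfolded protein in the endoplasmic reticulum, fell by 0.64 (limma adjusted p = 0.0381). In Cd+Se against Cd, 4 of the 16 were higher and 0 lower. These were Il6st (0.89, limma adjusted p = 0.00534), Epas1 (0.86, limma adjusted p = 0.0129), Atf6 (0.73, limma adjusted p = 0.0361) and Aco1, which belongs to the iron list too. With only the Cd and Cd+Se mice in the model, 0 genes of this list, of the iron list and of the ZnT list were higher.

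Markers of other liver cells moved with the groups, and their part in the importer results was not tested. All 11 Kupffer cell markers, genes of the resident macrophages, fell in Cd against control, with a median log2 difference of -1.24. Without the filter, 10 of the 11 markers fell. Their summed level was 204, 229, 193 and 232 TPM in the control mice and 108, 78.3, 86.0 and 116 TPM in the Cd mice. It was 75.1, 134, 122 and 144 TPM in the Cd+Se mice and 130, 256, 211 and 147 TPM in the Se mice. Clec4f was the most abundant of them in control and Se mice and Cd5l in Cd and Cd+Se mice. On the log2(TPM + 1) scale the largest falls were those of Vsig4 (-1.96, limma adjusted p = 5.25e-05), Timd4 (-1.90, limma adjusted p = 1.42e-05), Marco (-1.40, limma adjusted p = 0.00223) and Clec4f (-1.31, limma adjusted p = 0.00281). Timd4 was on average 3.2825 TPM in control, 2.885 in Se, 0.1425 in Cd and 0.3925 in Cd+Se mice. It thus passed the filter through the groups without cadmium. Its call held under all 24 other settings, with a log2 difference down to -3.81. The sum of every Cd+Se mouse lay below that of every control mouse (exact permutation p = 0.0286), and the sums of the Cd+Se and Cd mice overlapped (exact permutation p = 0.286). After centring, 10 of the 11 markers were lower in Cd against control. Of the Kupffer markers, 1 (Adgre1, 0.78, limma adjusted p = 0.0259) was higher in Cd+Se against Cd, a call lost under 7 of 24 other settings. After centring, without the filter, after the length and GC correction and with only the groups compared, 0 were higher.

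Of 10 neutrophil markers, 4 reached 1 TPM, and 3 of these rose in Cd against control, namely Retnlg (1.14, limma adjusted p = 0.00602), S100a8 (1.55, limma adjusted p = 0.00029) and S100a9 (1.53, limma adjusted p = 0.00378), the most abundant. Their sum was 17.0, 6.78, 11.04 and 17.0 TPM in the control mice, 41.9, 43.2, 36.7 and 35.6 TPM in the Cd mice and 78.0, 47.0, 52.9 and 54.6 TPM in the Cd+Se mice. It was 6.18, 9.83, 10.5 and 8.92 TPM in the Se mice. Camp, Cxcr2, Ltf, Ly6g, Mpo and Ngp were under 1 TPM on average. Retnlg, at 0.223 TPM in control and 0.365 TPM in Se mice, passed this filter through the injected groups, and without the filter 4 of the 10 markers rose. Of 4 tested monocyte markers, 2 rose in Cd against control, both of which reached 1 TPM through the injected groups (Ly6c2, 0.66, limma adjusted p = 0.0168, and Ccr2, 0.56, limma adjusted p = 0.0269). Without the filter 1 of 6 rose, Ly6c2. Lyz2, the most abundant, was higher in Cd+Se against Cd (0.83, limma adjusted p = 0.00972). The monocyte sum was 51.4 to 75.0 TPM in the Cd mice and 85.0 to 163 TPM in the Cd+Se mice, without overlap (exact permutation p = 0.0286). Between Cd and control mice this sum overlapped (exact permutation p = 0.4). The neutrophil sum did not overlap between Cd+Se and Cd mice either (exact permutation p = 0.0286).

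Of 9 endothelial markers, 1 rose (Stab1, 1.13, limma adjusted p = 0.0066) and 4 fell in Cd against control, namely Kdr (-0.90, limma adjusted p = 0.0204), Ptprb (-0.67, limma adjusted p = 0.016), Stab2 (-0.62, limma adjusted p = 0.0205) and Cdh5 (-0.54, limma adjusted p = 0.0406). After centring, 1 was higher and 0 lower. Lyve1 was the 1 endothelial marker that was higher in Cd+Se against Cd (1.09, limma adjusted p = 0.0138). The endothelial sum was 90.1 ± 6.09 TPM in control and 81.4 ± 16.8 TPM in Cd mice. Clec4g was the most abundant of these markers on average. Of 10 hepatocyte markers, 0 rose and 2 fell, Cps1 (-1.36, limma adjusted p = 0.000169) and Hnf4a (-0.81, limma adjusted p = 0.00173), with a median log2 difference of -0.13. Their sum was 72258 ± 9183 TPM in control and 55266 ± 13455 TPM in Cd mice (exact permutation p = 0.114). After centring, 3 hepatocyte markers were higher and 2 lower, with a median of 0.09. In Cd+Se against Cd, where 5 importers were higher, 3 of the 10 hepatocyte markers were higher too and 0 lower, with a median of 0.13, against 13.6% and 2.35% of all genes. With only the groups compared, 0 were higher. These were Cps1 (0.87, limma adjusted p = 0.00838), Hnf4a (0.58, limma adjusted p = 0.0239) and Apob (0.42, limma adjusted p = 0.0462), and the calls of Apob and Hnf4a were lost under 15 and 6 of 25 other settings. After centring, 2 were higher and 2 lower. Of 6 tested stellate cell markers, 0 rose and 1 fell in Cd against control, Reln (-0.93, limma adjusted p = 0.0104), and Dcn was the most abundant. After centring, and with only the groups compared, 2 stellate markers were higher and 1 lower. After the length and GC correction 2 were higher and 0 lower. All genes were 13.6% higher and 17.5% lower at that setting, and 6.35% higher and 24% lower with only the groups compared.

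The importers themselves varied together to different degrees. Over the 16 livers, which fall into 4 groups and share the scaling of their libraries, log2 levels of Slc39a14 and Slc39a9 had a Pearson r of 0.90 as deposited and 0.82 with each library centred on its median. For Slc39a14 and Slc39a8 it was 0.66 and 0.30, and for Slc39a14 and DMT1 0.74 and 0.50. The lowest values with Slc39a14 were those of Slc39a4, at -0.09 and -0.31, and Slc39a11, at 0.33 and -0.33. Among the 11765 other genes tested, those most like Slc39a14 over the 16 livers were Wbp1l (0.97), Serinc3 (0.96) and Ppm1l (0.96) as deposited, and Serinc3 (0.93), Smim13 (0.93) and Mat1a (0.92) after centring. Those most like Slc39a8 were Kmt5b (0.92), Actr3 (0.89) and Pum2 (0.89) as deposited, and Pum2 (0.78), Smurf1 (0.76) and Actr3 (0.76) after centring. For DMT1 they were Arhgap21 (0.94), Ptbp3 (0.93) and Insr (0.93) as deposited, and Arhgap21 (0.85), F5 (0.83) and Insr (0.82) after centring. Serinc3, Pum2, Actr3, Arhgap21 and Insr were thus named under both scalings.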

How the data were processed

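The authors extracted liver RNA with TRIzol, and a company made poly(A)-selected libraries, sequenced them and analysed differential expression. Per the labels, fastp, HISAT2 and StringTie were used, and the build named there is a human one, while the identifiers are those of mouse genes. The deposited values are TPM for 57010 genes and 16 libraries, so sequencing depth is unknown and no interval or floor from counts is given. Precision rests on 4 mice per group.

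Values were compared as log2(TPM + 1), which understates the change of low genes. Genes had to reach 1 TPM on average, and the 11766 that did were tested across all genes with limma 3.58.1 in R 4.3.3 in 1 model with a mean per group and a trend in eBayes. The Benjamini-Hochberg adjustment ran over all of these genes, and adjusted p-values under 0.05 were called. Slc39a10 and Slc39a5, with means under 1 TPM, were compared by an exact permutation test (two-sided, 70 arrangements of 4 against 4 mice). It was written in Python 3.11.15 with numpy 2.4.6. Steps were tested on simulated data. Whether a group's mice came from separate cages or batches is not stated, no batch is named in the labels, and the model holds no covariate.

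The importers, the other lists and the tests were chosen with earlier results of these data known, and lists were written from general knowledge. All 10 importers are named. From each other list, up to 4 genes with the largest difference past the threshold in Cd against control or Cd+Se against Cd are named. Also named are the most abundant marker of each cell type reported and the remaining ZIP genes. The 3 genes with the highest Pearson r are named for Slc39a14, Slc39a8 and Slc11a2. Cholangiocyte, lymphocyte, erythroid and pancreatic acinar markers were examined too and are not described. Of those tested, 0 passed the threshold in Cd against control or in Cd+Se against Cd. Slc22a3, Atf4, Nfkbia and Cdh5, which complete small counts, and Hamp were named after their values were seen. One gene of the other metal transporters that met the rule is counted but not reported here. Alternatives were a pseudocount of 0.1, no filter, a mean of at least 5 TPM, quantile normalization, centring on library medians, TPM of protein-coding nuclear genes, a loess correction for length and GC content (span 0.5, 98.3% of the genes tested had an annotated length), eBayes without a trend, only the groups compared, and leaving out each mouse. Positions and lengths were read from GENCODE M21 (build GRCm38) through the Ensembl identifiers.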

Additional observations from a re-analysis of the deposited data

Results flagged for a closer look

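Of 40 sets of 4 mice (10 importers in 4 groups), 4 had 1 mouse whose gap to its nearest neighbour took up more of the group's range than Dixon's 95% limit for 4 values allows. Chance gives about 1 in 20, or 2.0 of the 40. Slc39a14 in Cd+Se mouse 15 was 136 TPM against 71.4 to 73.2 TPM in the others (gap over range 0.972). Slc39a14 in control mouse 27 was 95.7 TPM against 79.6 to 82.1 TPM (0.843). Slc39a1 in the same mouse was 32.2 TPM against 25.3 to 26.1 TPM (0.887). Slc39a9 in Cd mouse 5 was 5.73 TPM against 8.11 to 8.46 TPM (0.872). Without Cd+Se mouse 15, the log2 difference of Slc39a14 between Cd+Se and control mice went from 0.00 to -0.22 (limma adjusted p = 0.649).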

How the results depend on the processing

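No paired analysis was possible because the groups share no mouse numbers. The counts of importers that fell in Cd against control stayed between 4 and 5 under all 25 alternatives. The share of all genes that fell was 24.9% as deposited, 15.3% after centring and 29.4% with TPM of protein-coding nuclear genes. The count that rose in Cd against control went from 0 to 1 under quantile normalization, centring and the length and GC correction. There 14.5%, 19.2% and 13.6% of all genes rose, in that order, against 5.82% as deposited. With only the groups compared the count was also 1, where 6.35% of all genes rose. The count lay between 0 and 1 when single mice were left out, where 439 to 759 of 11766 genes rose. The count that was higher in Cd+Se against Cd was 5 as deposited, where 13.6% of all genes were higher. The count went to 2 without a filter and after centring, where 929 of 27943 genes and 7.96% of all genes were higher. It went to 3 after the length and GC correction (7.46% of all genes) and to 0 with only the groups compared (0.399%). With single mice left out the count lay between 1 and 5, where 591 to 1938 of 11766 genes were higher. The interaction count went from 0 to 2 with TPM of protein-coding nuclear genes, where 6.27% of all genes passed above 0. Signs turned only for differences that did not pass the test. Slc39a11 in Cd against control became 0.15 after quantile normalization and after centring, 0.11 after the length and GC correction and 0.0113 without Cd mouse 5. Slc39a14 in Cd+Se against control became -0.0132 with TPM of protein-coding nuclear genes, and lay between -0.22 and 0.0822 when single mice were left out. Left-out mice gave ranges of -0.17 to 0.16 for Slc39a14 in Cd+Se against Se, -0.16 to 0.0299 for Slc39a14 and -0.17 to 0.52 for Slc39a4 in Se against control, -0.15 to 0.0862 for Slc39a4 and -0.14 to 0.0161 for Slc39a10 in Cd+Se against Cd, and -0.56 to 0.13 for Slc39a4 and -0.15 to 0.075 for Slc39a11 in the interaction. Slc39a10 in Cd against control kept its sign, but with 3 against 4 mice the exact permutation p cannot go below 0.0571. Among the genes of other lists named for Cd against control, the calls of Slc39a13 (lost under 17 of 24 alternatives), Cdh5 (10 of 24) and Atf6 (9 of 25) were lost most often, and of the 20 such genes that met the naming rule for Cd+Se against Cd, 19 lost their call with only the groups compared. The causes of these changes were not tested.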
